A study of Mus musculus with 11 samples.

Results

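The SREBP pathway sets how much cholesterol and fatty acid a liver cell makes. SREBP-2 (gene Srebf2) and SREBP-1c (from Srebf1) are membrane-bound transcription factors held in the endoplasmic reticulum by Insig proteins. When sterols run low, SCAP carries them to the Golgi, where 2 proteases release the active part of the protein to the nucleus. SREBP-2 mainly drives the enzymes from acetyl-CoA to cholesterol, and SREBP-1c, with insulin, LXR and the glucose sensor ChREBP, drives fatty acid synthesis. Hepatocytes are the main site of both routes in the body.

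Spatial expression of 33 genes of this pathway was followed in mouse liver injured with acetaminophen (APAP), which in excess destroys the hepatocytes nearest the central vein. The genes were chosen by name among the 31053 genes in the files and kept as 2 groups. The sterol arm had 23 genes, namely 19 enzymes of cholesterol synthesis, Srebf2, Insig1, Insig2 and the sterol transfer gene Stard4. The fatty acid arm had 10 genes, comprising Srebf1 and 9 genes of lipogenesis. All 33 passed the filter on low counts, which kept 14821 genes.

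The Visium assay captures polyadenylated RNA of a tissue section on an array of spots with known barcodes. A spot covers more than a cell, and its counts come from whatever cells lie above it. The 11 liver sections were 3 uninjured ones, called 0 h and labelled 2, 3 and 4, and 8 taken after APAP. Of these, sections A and B came from 24 h, another A and B from 36 h, and A to D from 48 h. The labels name no strain, mouse, slide or batch; the study's methods describe male young adult mice, with C57BL/6JCrl as the wild-type stock, that were fasted and then given APAP into the peritoneum. They give n = 1 per time point for mouse liver in this assay, and which mouse each section came from is not stated. Here n counts sections. The p-values measure how sections vary and cannot be taken to measure how mice vary. Whether mice at 0 h were fasted is not stated, so APAP and the fast before it cannot be told apart.

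The passing spots of a section held 31292663 to 67045372 unique molecular identifiers (UMIs, counts of single RNA molecules) in 1490 to 3466 spots. Levels are given as CPM, counts per section total as edgeR computes them after TMM scaling, which centres the typical gene. The hepatocyte markers Alb, Ttr, Apoa1 and Hnf4a were read in every section, with a summed level of 104866 to 109575 CPM at 0 h and 64804 to 88025 CPM in the injured sections. Spots poor in Alb, Ttr and Apoa1 (hepatocyte-low, under the lowest 1% of 0 h spots) made up 0.413 to 1.46% of spots at 0 h, 21.7% and 23.2% at 24 h, 2.51% and 7.26% at 36 h and 6.32 to 16.4% at 48 h. In such sums fewer hepatocytes and less RNA per hepatocyte cannot be told apart. The summed level of 4 mononuclear phagocyte markers was 409 to 434 CPM at 0 h and 448 to 1327 CPM after APAP, and that of 4 myofibroblast markers was 37.5 to 45.9 CPM and 70.4 to 1185 CPM. Of 4 adipocyte markers, Lep was at 0 in every section and Adipoq and Plin1 were at or under 0.261 CPM. The fourth, Cidec, which is also a lipid droplet gene of fatty hepatocytes, was at 0.660 to 1.19 CPM at 0 h and 0.954 to 6.86 CPM after APAP, and was called higher at 24 h (log2 fold change 2.50) and 36 h (2.06).

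Sequences upstream of 4 members are shown first, because SREBPs bind short elements upstream of their targets, usually beside a CCAAT box bound by NF-Y. RefSeq promoter windows (GRCm38.p6) matched 28 of the 33 members. In the 250 bases before the start, both strands were searched for the sterol regulatory element core TCACNCCA, for CCAAT and for the E-box CACGTG. Matches were counted whether or not they overlap. The core was found for Hmgcs1, Msmo1 and Srebf2, 3 of 28 members, against 4.20% of all genes with a window. CCAAT was found for 24 of 28 members, or 85.7%, against 37.5% of all genes. Acat2, Acly, Acaca and Elovl6 lacked it. The E-box was found for 4 of 28 (Hsd17b7, Sc5d, Dhcr7 and Insig1) against 6.86%. A match is a description of letters and not a bound site, and one that is missing says only that these letters are not in this window. Capitals mark the core and CCAAT, read on either strand, and each stretch lies upstream of its gene and overlaps no gene annotated in GENCODE vM21:
Hmgcs1, plus strand, chr13:119690102-119690322: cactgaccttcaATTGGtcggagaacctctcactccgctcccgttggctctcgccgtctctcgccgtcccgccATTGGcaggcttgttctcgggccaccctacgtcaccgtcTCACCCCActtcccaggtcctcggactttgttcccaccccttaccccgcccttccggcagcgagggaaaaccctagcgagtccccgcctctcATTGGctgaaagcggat
Srebf2, plus strand, chr15:82147095-82147150: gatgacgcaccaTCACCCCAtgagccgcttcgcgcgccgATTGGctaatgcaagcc
Insig1, plus strand, chr5:28071184-28071212: cgccctcctcccATTGGctccggcggcct
Fasn, minus strand, chr11:120824590-120824649: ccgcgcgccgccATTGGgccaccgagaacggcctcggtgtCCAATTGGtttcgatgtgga
In Hmgcs1 the core began 137 bases before the start and CCAAT boxes began at 237, 176 and 45 bases. In Srebf2 the core began at 162 and CCAAT at 135 bases. Insig1 held a CCAAT box at 216 bases and no core. Fasn held CCAAT at 90 bases and, on both strands over shared letters, at 62 and 59 bases, also with no core.

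Genes of both arms were lower after APAP, most of them at 48 h. In edgeR's quasi-likelihood test over all genes (called at a Benjamini-Hochberg adjusted p under 0.05), 12 of 23 sterol genes were lower at 24 h, 14 at 36 h and 20 at 48 h, and none was higher. Over all genes tested, 18.6%, 12.4% and 20.9% were lower at those times and 23.1%, 16.8% and 23.3% were higher. The median log2 fold change of the sterol arm was -0.83 at 24 h, -0.88 at 36 h and -1.15 at 48 h, where the median over all genes was 0.05, 0.05 and 0.01. In the fatty acid arm 1 of 10 genes was lower at 24 h and at 36 h and 8 at 48 h, with medians of -1.31, -0.96 and -2.25. The counts depend on single sections: without 24 h B 6 sterol genes were called at 24 h, without 0 h 2 or 0 h 3 9 were at 36 h, and without 0 h 3 4 fatty acid genes were at 48 h. For 14 sterol genes, and for Acly, Acacb, Scd1 and Me1 in the fatty acid arm, all 8 injured sections lay below all 3 uninjured ones. The share of all genes that separate this way was not counted, so these numbers cannot be set against it.

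**Figure D1:**
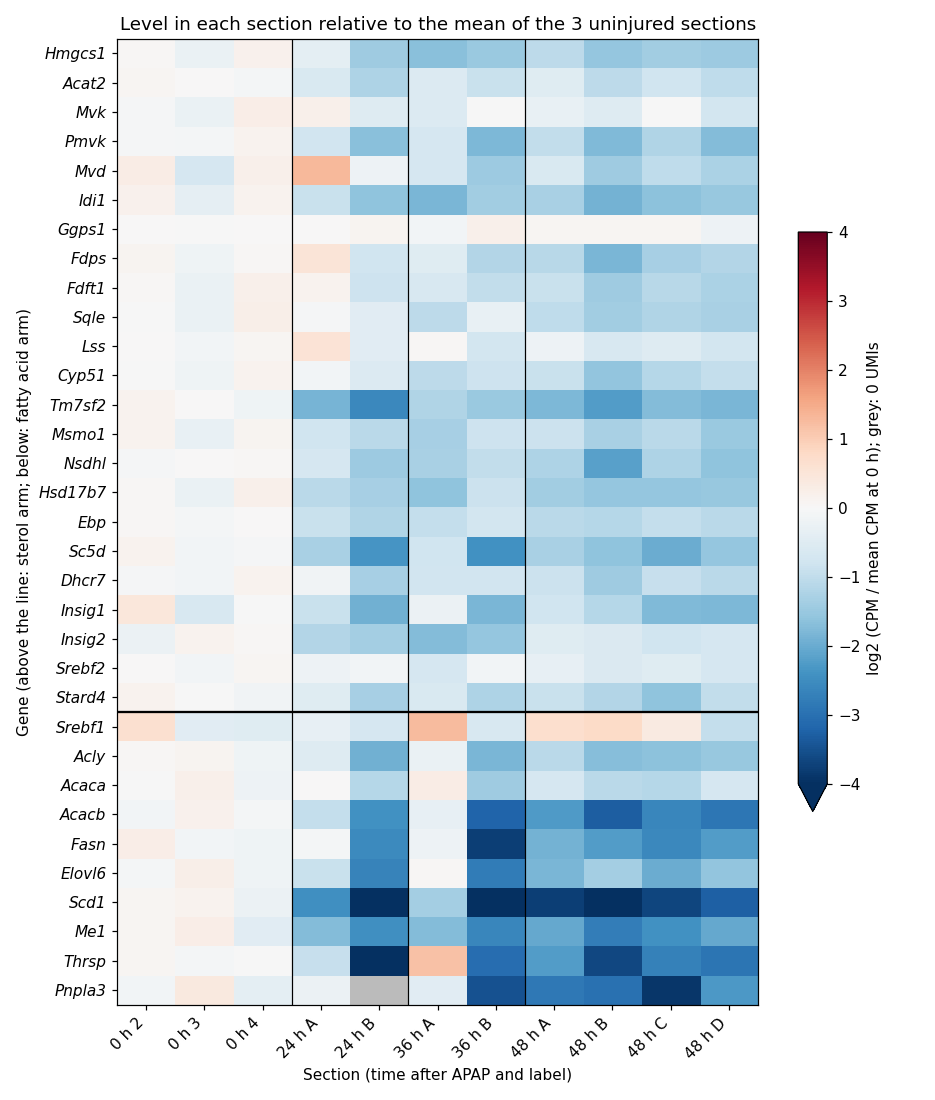
Level of each of the 33 genes (rows) in each of the 11 sections (columns) as log2 of CPM over the mean CPM at 0 h; grey marks 0 UMIs and the line separates the arms. Most sterol genes are moderately lower in all 8 injured sections, whereas the fatty acid genes differ between the sections of a time, with Scd1 at 3665 and 84.1 CPM in sections A and B of 36 h and Thrsp at 2033 and 109.

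These calls depend on how libraries are scaled. With plain total-count scaling the median gene rose to 0.37, 0.49 and 0.54 log2 units above 0 h at 24, 36 and 48 h, and 80.4%, 94.1% and 93.7% of all calls were higher, against 55.4%, 57.5% and 52.7% with TMM. The sterol arm then had 7, 7 and 14 genes lower and 1 higher (Ggps1) at the 3 times, and the fatty acid arm 1, 1 and 4 lower. The median log2 fold changes were -0.50, -0.44 and -0.62 for the sterol arm and -0.98, -0.50 and -1.73 for the fatty acid arm, still below the median of all genes. Directions below are relative to the typical gene.

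Within the sterol arm, the first steps join acetyl units into mevalonate and turn it into isoprenoids. Of these 8 genes, 4 were lower at 24 h, 4 at 36 h and 6 at 48 h. Hmgcs1, which makes HMG-CoA (chr13:119690379-119708260), was at 419, 339 and 459 CPM at 0 h, 311 and 150.4 at 24 h, 128.1 and 146 at 36 h, and 198, 138, 153 and 147 at 48 h. No injured section reached the lowest uninjured one. The level was 1.76-fold lower at 24 h (adjusted p = 0.0353), 2.96-fold at 36 h (adjusted p = 0.00347) and 2.55-fold at 48 h (adjusted p = 0.000855). Leaving out 24 h B, 0 h 2 or 0 h 4 ended the 24 h call (log2 fold change -0.39, -0.83 and -0.76). Idi1, the isomerase that makes dimethylallyl diphosphate, was at 169, 116 and 163 CPM at 0 h, 79.7 and 49.2 at 24 h, 41.9 and 57.1 at 36 h, and 60.7, 40.4, 48.1 and 51.8 at 48 h. Its injured sections also lay below the uninjured ones throughout, with log2 fold changes of -1.21 ± 0.26 (SE), -1.59 ± 0.26 and -1.57 ± 0.21. Pmvk, the phosphomevalonate kinase, was at 175, 172 and 199.8 CPM at 0 h against 107 and 57.9 at 24 h, 114 and 53.1 at 36 h, and 91.5, 53.9, 80.0 and 55.1 at 48 h. It was 2.21, 2.18 and 2.60-fold lower at the 3 times, with A above B at both 24 h and 36 h. Its 24 h and 36 h calls were lost in 3 and 5 of 11 fits that left out 1 section. Its log2 fold change at 24 h was -1.66 or -0.77 when section A or B of that time was left out. At 36 h the same omissions gave -1.79 or -0.68. Fdps, which makes farnesyl diphosphate, was at 618, 509.7 and 590.2 CPM at 0 h, 818 and 329.7 at 24 h, 413 and 254 at 36 h, and 267, 163, 227 and 253 at 48 h. At 24 h its sections lay on either side of the uninjured range, and only the 48 h call passed (2.52-fold lower, adjusted p = 0.00437).

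Mvd, the mevalonate decarboxylase, was among the 4 of 8 mevalonate and isoprenoid genes not called at 24 h. Its log2 fold change then was 0.72, the highest of the 8. At 48 h it was -1.03, a call lost in 7 of 11 fits that left out 1 section. The level of Mvd was 56.5, 28.5 and 52.1 CPM at 0 h, 111 and 39.4 at 24 h, 28.8 and 16.6 at 36 h, and 30.2, 17.2, 22.8 and 19.01 at 48 h. Mvd was the only sterol gene called lower at 36 h than at 24 h (log2 fold change -1.73 ± 0.50, adjusted p = 0.0441), where 7.04% of all genes were higher and 8.58% lower. No sterol gene was called between these times without 36 h A, 36 h B or 0 h 2, and the fit of only those 2 groups called none either. Ggps1, which feeds protein prenylation rather than sterols, stayed between 6.56 and 8.79 CPM in all 11 sections. Its largest difference from 0 h was 0.06 on the log2 scale with an SE of 0.14.

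Squalene formation and its closure to lanosterol take 3 genes. None was called at 24 h, 1 was lower at 36 h (Fdft1) and 2 at 48 h. The 36 h call of Fdft1 was lost in 8 of the 11 fits that left out 1 section. Sqle, the squalene epoxidase that forms a rate-limiting step of the route, was at 84.0, 70.2 and 99.0 CPM at 0 h, 82.2 and 61.2 at 24 h, 41.1 and 69.3 at 36 h, and 41.7, 32.6, 36.7 and 34.0 at 48 h. Its uninjured range overlapped the 24 h sections, came close to 36 h B and lay well above all 4 sections at 48 h (2.33-fold lower, adjusted p = 0.000533). Lss differed by -0.51 ± 0.24 on the log2 scale at 48 h (adjusted p = 0.110) and was not called at any time.

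Of the 8 genes that turn lanosterol into cholesterol, 6 were lower at 24 h and 7 at 36 h, and by 48 h all were. Tm7sf2, a sterol reductase (chr19:6062821-6068373), had the largest fall of the arm. It was at 167, 155 and 135 CPM at 0 h, 42.2 and 25.2 at 24 h, 65.6 and 54.2 at 36 h, and 43.9, 32.4, 45.4 and 43.3 at 48 h. This was 4.51-fold lower at 24 h (adjusted p = 8.8e-05) and 2.54 and 3.69-fold lower later, and the level at 36 h was above that at 24 h (log2 difference 0.83 ± 0.23, adjusted p = 0.0388). Sc5d, a sterol desaturase, was at 739.6, 619 and 646 CPM at 0 h, 275 and 131 at 24 h, 385 and 124 at 36 h, and 273, 221, 169 and 226 at 48 h. A lay well above B at both early times, so its falls of 3.30 and 2.63-fold carried wide errors (SE 0.45 log2 units each). Nsdhl, a demethylating dehydrogenase, was at 81.9, 84.8 and 87.1 CPM at 0 h, 53.7 and 31.2 at 24 h, 34.8 and 43.2 at 36 h, and 35.8, 18.9, 36.0 and 28.0 at 48 h. It was 1.99, 2.17 and 2.85-fold lower. Hsd17b7, the keto-reductase of the same complex, was at 42.6, 33.9 and 47.1 CPM at 0 h, 19.5 and 16.2 at 24 h, 13.4 and 22.5 at 36 h, and 15.5, 14.0, 14.0 and 14.3 at 48 h. Its 4 sections at 48 h were nearly equal, 2.85-fold below 0 h (adjusted p = 8.71e-05). Msmo1, the methylsterol oxidase, was at 251, 183 and 244 CPM at 0 h, 131 and 107 at 24 h, 90.4 and 127 at 36 h, and 125, 90.9, 108 and 80.6 at 48 h, a fall of 1.90, 2.08 and 2.23-fold. Without 24 h B the 24 h calls of Sc5d, Nsdhl and Msmo1 were lost. The 36 h call of Sc5d was lost in 6 and that of Nsdhl in 2 of 11 fits that left out 1 section. Cyp51, Ebp and Dhcr7 completed the group at 48 h with falls of 2.16, 2.07 and 2.07-fold.

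**Figure D2:**
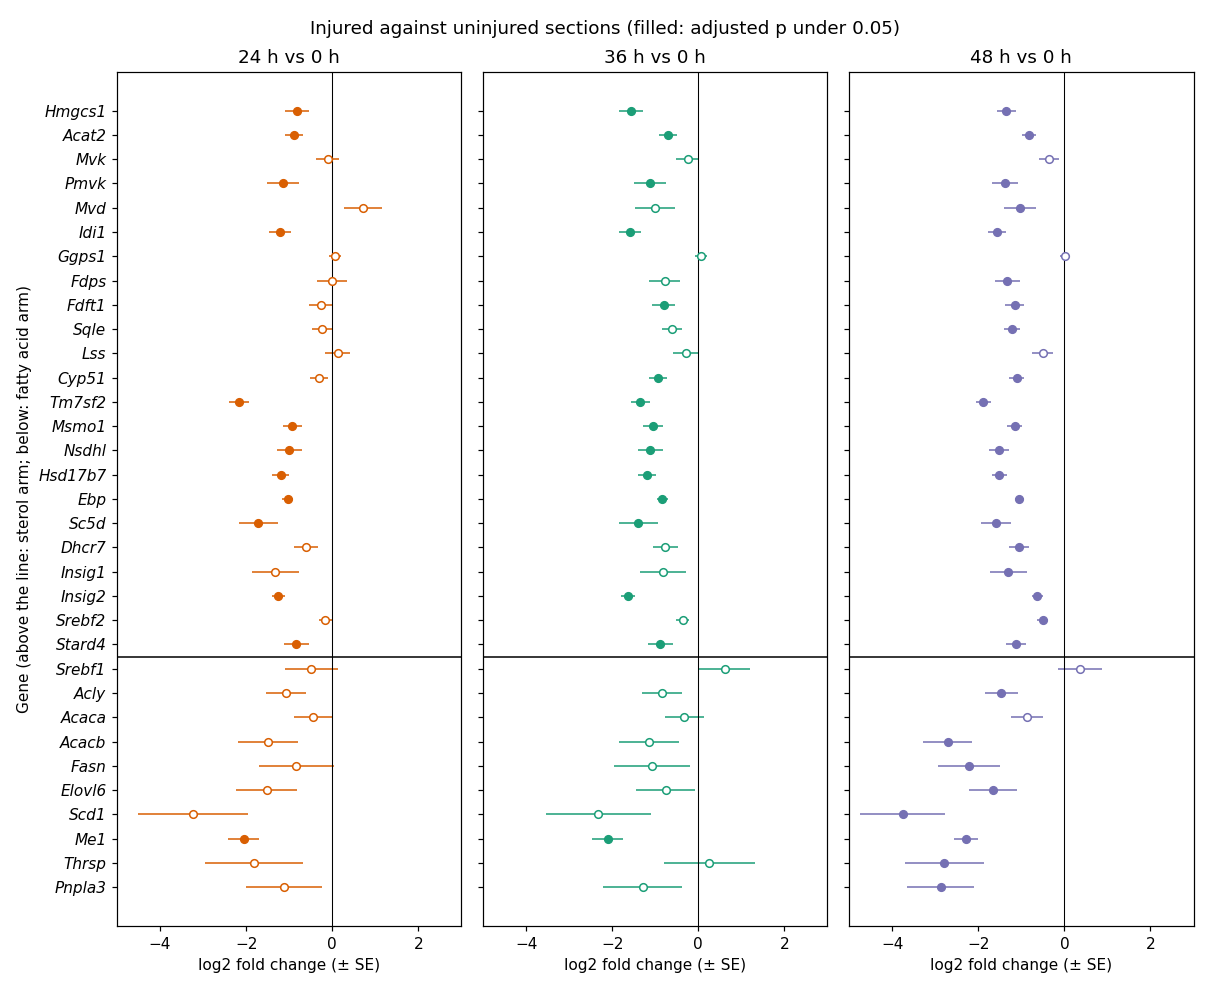
log2 fold change of each gene against 0 h with its SE (bars) at 24, 36 and 48 h; filled points passed an adjusted p of 0.05 and the line separates the arms. The sterol genes lie mostly between -2 and 0 with short bars, and the fatty acid genes reach -3.76 with bars of up to 1.28 log2 units at 24 h.

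The pathway's own regulators moved by different amounts. Srebf2 (chr15:82147181-82205379) was at 37.2, 33.8 and 38.4 CPM at 0 h, 31.9 and 33.5 at 24 h, 23.1 and 33.6 at 36 h, and 29.0, 24.6, 26.0 and 23.1 at 48 h. It was called only at 48 h, 1.42-fold lower (adjusted p = 0.00860), and with total-count scaling this difference was 0.02. Insig2, which retains SCAP, was at 289, 381 and 357 CPM at 0 h, 153 and 134 at 24 h, 102 and 118 at 36 h, and 243, 232, 198 and 213 at 48 h. Its groups formed separate ranges: 2.39-fold lower at 24 h (adjusted p = 0.000163), 3.11-fold at 36 h (adjusted p = 0.000233) and 1.55-fold at 48 h (adjusted p = 0.00196). With total-count scaling the 48 h difference of Insig2 was -0.10 log2 units and was not called. Between 36 h and 48 h no fatty acid gene was called (2 had an unadjusted p under 0.05, and DESeq2 called 0), and Insig2 was the only sterol gene called, rising by 1.01 ± 0.14 log2 units (adjusted p = 0.0139; 1.62% of all genes rose and 1.43% fell). That call was lost in the fit of only those 2 groups. Insig1, a direct SREBP target that also retains SCAP, was at 459, 212 and 329 CPM at 0 h, 179.6 and 87.6 at 24 h, 283 and 93.5 at 36 h, and 193, 152, 98.7 and 96.2 at 48 h. It was 2.47-fold lower at 48 h (adjusted p = 0.0322), and 5 of the 11 fits that left out 1 section lost the call. Stard4 was lower at all 3 times, by 1.78, 1.84 and 2.19-fold, but its 24 h call was lost in 4 and its 36 h call in 5 of 11 fits that left out 1 section.

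In the fatty acid arm 8 of 10 genes were lower at 48 h, by 2.76 to 13.5-fold, and its sections at 24 h and 36 h lay far apart. Scd1, the desaturase that makes oleate (chr19:44394455-44407879), was at 9929, 10306 and 7924 CPM at 0 h, 1723 and 272 at 24 h, 3665 and 84.1 at 36 h, and 685, 381, 739.8 and 967 at 48 h. Every injured section was below every uninjured one, yet only the 48 h difference passed (13.5-fold lower, log2 fold change -3.76 ± 0.99, adjusted p = 0.0122). Fasn, the fatty acid synthase (chr11:120805846-120824547), was at 1048, 805 and 774 CPM at 0 h, 829.9 and 149 at 24 h, 764 and 64.1 at 36 h, and 236, 186, 146 and 186 at 48 h. Both A sections lay at the uninjured level or close to it, both B sections far below, and the 48 h sections were 4.64-fold lower (adjusted p = 0.0308). Thrsp, the lipogenic protein Spot 14, was at 955, 844 and 886 CPM at 0 h, 468 and 40.1 at 24 h, 2033 and 109 at 36 h, and 190.2, 71.4, 139 and 118 at 48 h. Section 36 h A was thus above all uninjured sections and 36 h B below all of them, and the 48 h level was 6.91-fold lower (adjusted p = 0.0317). The 48 h calls of Fasn, Thrsp and Elovl6 did not hold in 7, 6 and 7 of the 11 fits that left out 1 section.

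Other genes supply carbon and reducing power or make malonyl-CoA. Acly, which makes cytosolic acetyl-CoA, was at 367, 384 and 319.9 CPM at 0 h, 247 and 93.9 at 24 h, 298 and 101 at 36 h, and 169, 110.5, 114 and 125 at 48 h (2.76-fold lower at 48 h, adjusted p = 0.0105). Me1, which supplies NADPH, was at 245, 277 and 167 CPM at 0 h, 68.4 and 41.6 at 24 h, 69.3 and 37.5 at 36 h, and 55.5, 34.1, 42.4 and 55.2 at 48 h. It was the single fatty acid gene called at every time, 4.17, 4.30 and 4.90-fold lower (adjusted p = 0.00133, 0.00274 and 0.000173). Acacb, the mitochondrial acetyl-CoA carboxylase, was at 73.6, 90.4 and 75.2 CPM at 0 h, 41.5 and 14.8 at 24 h, 63.3 and 8.62 at 36 h, and 16.5, 8.05, 13.2 and 10.7 at 48 h. At 48 h it was 6.57-fold lower (adjusted p = 0.00411), whereas its cytosolic counterpart Acaca differed by -0.88 ± 0.37 log2 units at 48 h and was not called at any time. Elovl6, a fatty acid elongase, was at 54.2, 67.8 and 51.4 CPM at 0 h, 31.1 and 9.09 at 24 h, 60.1 and 8.30 at 36 h, and 16.4, 22.5, 14.7 and 19.2 at 48 h (3.17-fold lower, adjusted p = 0.0356). Pnpla3, a lipid droplet protein, was near the limit of detection: 27, 45 and 17 UMIs at 0 h, 25 and 0 at 24 h, 16 and 2 at 36 h, and 6, 4, 3 and 9 at 48 h. In 24 h B a count of 0 allows up to 3 UMIs, and the fitted log2 fold change of -2.87 at 48 h (adjusted p = 0.0127) rests on these few molecules.

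Srebf1 (chr11:60199089-60222581) did not fall with its targets. It was at 138, 65.3 and 63.7 CPM at 0 h, 71.3 and 55.8 at 24 h, 214 and 57.0 at 36 h, and 143, 152, 115 and 46.1 at 48 h. Its groups overlapped at every time, with log2 differences of -0.48 ± 0.62, 0.61 ± 0.60 and 0.36 ± 0.51 (adjusted p = 0.559, 0.470 and 0.593). The 3 prime counts used here do not tell its transcripts for SREBP-1a and SREBP-1c apart.

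**Figure D3:**
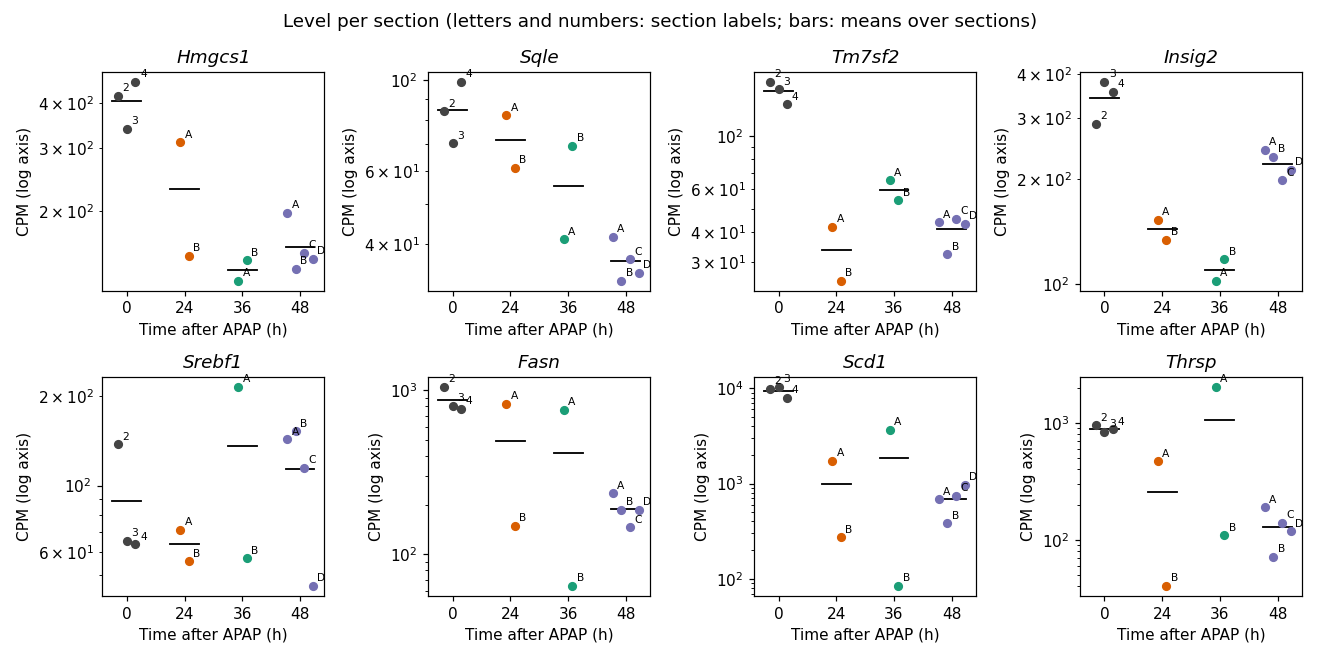
CPM (log axis) of 4 sterol genes and 4 fatty acid genes in each section, against time after APAP in hours; points carry the section label and bars are means. The 2 sections at 36 h lie close together for Hmgcs1 (128.1 and 146) and 43.6-fold apart for Scd1.

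The distance between the sections of a time was larger in the fatty acid arm. Between 36 h A and 36 h B, 6 of its 10 genes were more than 4-fold apart, all higher in A, against 2.67% of all genes. Between 24 h A and B, 4 of 10 were, again all higher in A, against 0.958% of all genes. None of the 23 sterol genes was past 4-fold in either pair. The ratio of A to B at 36 h was 43.6 for Scd1 (95% exact interval for counting error only, 42.0 to 45.2), 18.7 for Thrsp (18.1 to 19.3), 11.9 for Fasn (11.4 to 12.4) and 3.76 for Srebf1 (3.57 to 3.95). Over the fatty acid arm the median log2 difference of A from B was 2.61 at 36 h and 1.62 at 24 h, and over the sterol arm -0.19 and 0.74. At 36 h, 12 of the 23 sterol genes were higher in B, among them Sqle (ratio of A to B 0.593, 0.555 to 0.633), Hsd17b7 (0.595, 0.529 to 0.668) and Msmo1 (0.712, 0.680 to 0.745). Across the uninjured sections the largest ratio of highest to lowest was 2.16 in both arms, and at 48 h 2.01 in the sterol and 3.31 in the fatty acid arm, Pnpla3 aside. Without 36 h A, 7 of 10 fatty acid genes were called lower at 36 h, and without 36 h B 1 was. Other values also differ between the 36 h sections: 7.26% and 2.51% of spots were hepatocyte-low, and the summed myofibroblast markers were at 124 and 384 CPM. Clock genes were read too. In 36 h A and B, Dbp was at 63.4 and 28.8 CPM, Per2 at 15.8 and 9.27 and Ciart at 4.49 and 18.0. The other sections were at 2.90 to 10.9, 2.73 to 6.04 and 0.129 to 1.04. Arntl was close in 36 h A and B, at 3.33 and 3.57 CPM, against 8.80 to 17.4 in the others. In all these genes both 36 h sections lay outside the range of the other times. These genes were looked at after the values were seen. Their part in the difference of A from B, and that of time of day in any comparison with 36 h, was not tested.

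**Figure D4:**
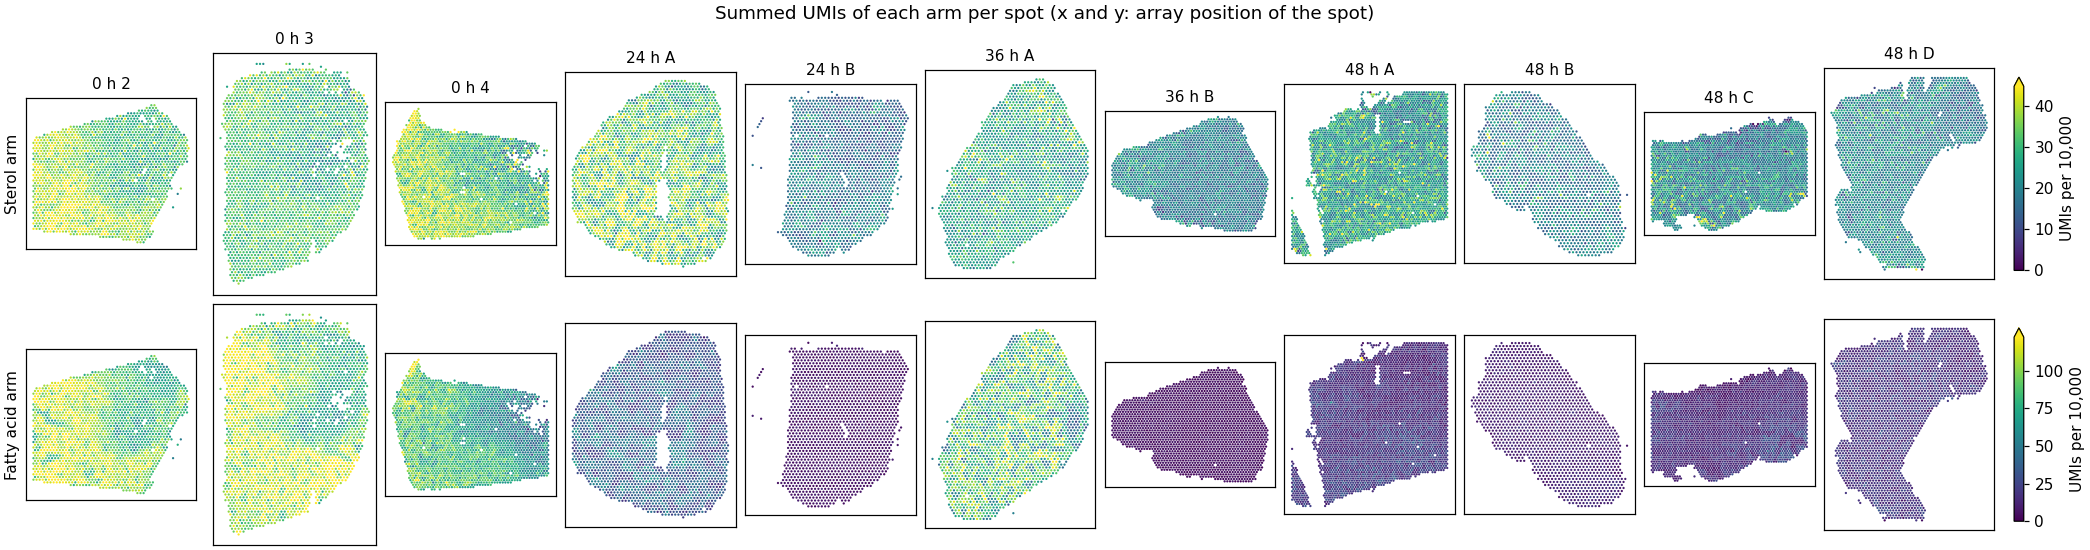
Summed UMIs of each arm per 10,000 UMIs of a spot, at the array position of each passing spot, for the 11 sections (columns); the colour scale is capped at its top value. The fatty acid arm is low in 24 h B, 36 h B and the 48 h sections, with median spot values of 5.06 to 17.4, and high across 36 h A, with a median of 83.1.

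Spot by spot, the fatty acid arm was low in most spots of 24 h B, 36 h B and the 48 h sections. Whether low spots lie in patches was not tested. The median spot of the fatty acid arm held 75.7 to 99.2 UMIs per 10000 at 0 h, 35.1 and 6.84 at 24 h, 83.1 and 5.06 at 36 h and 10.98 to 17.4 at 48 h. The 90th percentile of spots in 36 h B (7.78) was below the 10th percentile in 36 h A (49.2). The sterol arm was at 30.6 to 34.8 at 0 h, 33.1 and 17.1 at 24 h, 25.8 and 18.6 at 36 h and 17.9 to 24.2 at 48 h. At 24 h to 48 h the sterol arm took a share of the UMIs of hepatocyte-low spots that was 0.678 to 0.924 of its share in the other spots of the section. For the fatty acid arm this ratio was 0.564 to 1.06, and for Alb, Ttr and Apoa1, which define these spots, 0.500 to 0.704. Hnf4a, a hepatocyte gene not used to define these spots, was at 0.624 to 0.900. Without these spots, 10, 12 and 18 sterol genes and 1, 1 and 7 fatty acid genes were lower at 24, 36 and 48 h.

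Across the liver lobule, spots of each section were ordered by the study's central and portal gene lists and split into 3 equal zones, leaving out hepatocyte-low spots. Blood enters at the portal side and leaves at the central vein, and APAP toxicity is greatest centrally. Of 5 central and 5 portal genes outside the lists, all 10 separated the central and portal zones in their direction at 0 h. After APAP all 5 portal genes did so at 24 h and 48 h and 4 at 36 h, but only 2, 2 and 4 of the central ones at 24, 36 and 48 h. The summed central list differed between zones by 0.84 to 0.96 log2 units at 0 h and by -0.07 to 0.37 after APAP, so the zones of injured sections follow the portal genes and do not have the same meaning as at 0 h.

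In uninjured liver the sterol genes called between zones were mostly higher portally. The test used each section's zones as a pair. At 0 h, 1 sterol gene was higher in the central zone (Tm7sf2, log2 difference 0.12 ± 0.04) and 7 in the portal zone, where 8.64% and 8.72% of 13679 genes were. With total-count scaling 5 were higher centrally (Nsdhl, Mvk, Fdft1, Acat2 and Tm7sf2) and 6 portally. Sqle was the most portal of the arm at 64.5, 56.4 and 79.8 CPM in the central zone against 98.4, 80.6 and 111 in the portal zone of sections 2, 3 and 4 (-0.54 ± 0.07, adjusted p = 2.17e-05). In the fatty acid arm 4 genes were higher portally, led by Acly at 267, 303 and 235 CPM centrally against 451, 441 and 386 portally (-0.67 ± 0.11, adjusted p = 0.0044). Fasn followed at -0.33 ± 0.08. Me1 ran the other way, at 273, 313 and 184 CPM centrally against 202, 223 and 133 portally (0.46 ± 0.06, adjusted p = 9.63e-06).

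At 24 h the sterol arm was lower in the central zone. All 23 genes had a negative fitted difference, 14 of them called, where 9.5% of all genes were higher portally and 6.54% centrally. In section 24 h B alone, 2 of the 23 were higher centrally. With total-count scaling Pmvk, Ggps1, Srebf2 and Acat2 had positive differences of 0.01 to 0.11, and the typical gene was 0.17 higher centrally. With TMM the median of the sterol arm was -0.38 log2 units, against -0.02 over all genes. The largest were Insig2 (-0.56 ± 0.08, adjusted p = 0.000201) and Mvd (-0.55 ± 0.08, adjusted p = 1.53e-06). The difference from 0 h was itself called for 11 of 33 members, against 10.7% of all genes, led in size by Msmo1 (-0.59 ± 0.15), Nsdhl (-0.58 ± 0.09) and Fdft1 (-0.54 ± 0.07). The Msmo1 call was lost in 7 of 11 fits that left out 1 section. Leaving out 24 h A left 8 sterol genes called at 24 h. For the difference from 0 h, 6 members were called without 24 h A, and 6, 5 and 7 without 0 h 2, 3 and 4. The summed sterol arm differed by -0.41 and -0.34 log2 units in 24 h A and B and by -0.07 to 0.01 at 0 h. Hepatocyte markers differed by -0.35 and -0.48 at 24 h and by -0.43 to -0.42 at 0 h. Higher centrally at 24 h were neutrophil (0.53 and 1.07), mononuclear phagocyte (0.03 and 0.23) and myofibroblast markers (0.24 and 0.45). What part these played was not tested. With hepatocyte-low spots kept (21.7% and 23.2% of spots in 24 h A and B), 22 sterol genes were lower centrally. This count is over a different set of spots, and the 9.5% of all genes above does not apply to it.

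At 36 h little separated the zones. In the sterol arm 1 gene was higher centrally (Mvd, 0.43 ± 0.11, adjusted p = 0.00789) and 4 portally, where 5.91% and 8.96% of all genes were. Srebf1 was lower centrally, at 176 and 49.7 CPM against 259.6 and 61.7 in A and B (-0.47 ± 0.06, adjusted p = 2.26e-07). The zone difference from 0 h was called for 6 of 33 members, against 13.1% of all genes. Without 36 h A, 1 sterol gene and 1 such difference were called.

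By 48 h most of the sterol arm was higher in the central zone: 15 of 23 genes were higher centrally and 3 portally (Ebp, Insig2 and Stard4), where 21.6% and 22% of all genes were, and the median difference was 0.31 log2 units against 0.01 over all genes. Centrally higher were 7 of 8 genes of the mevalonate and isoprenoid steps, 3 of 3 of the squalene and lanosterol steps, 5 of 8 after lanosterol and none of the 4 remaining genes. Hmgcs1 was at 249, 186, 198 and 183 CPM in the central zone and 146, 88.0, 118 and 110.2 in the portal zone of sections A to D. All 4 sections differed in the same direction, by 0.74 to 1.08 log2 units (fit 0.80 ± 0.10, adjusted p = 0.000248). Msmo1 was at 154, 116, 138 and 95.01 CPM centrally against 99.0, 64.1, 84.8 and 67.6 portally (0.65 ± 0.08, adjusted p = 0.000207). Idi1 was at 72.0, 52.2, 61.9 and 61.2 CPM centrally against 49.9, 25.2, 40.2 and 42.1 portally (0.63 ± 0.08, adjusted p = 6.77e-05). Even Sqle, the most portal sterol gene before injury, was higher centrally in 4 of 4 sections, at 45.3, 38.9, 40.8 and 35.3 CPM against 39.9, 24.5, 37.0 and 34.6 (0.20 ± 0.07, adjusted p = 0.0273).

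The change of zone was itself tested. Between 48 h and 0 h the zone difference moved for 20 of 33 members, where 29% of all genes did: 14 sterol genes moved towards the central zone and 3 towards the portal zone. Idi1 moved by 0.77 ± 0.11 log2 units (adjusted p = 0.000348) and Sqle by 0.74 ± 0.10 (adjusted p = 1.86e-05). Between 48 h and 24 h, a contrast added after both had been seen, 17 sterol genes moved towards the central zone and none towards the portal zone, with 20 of 33 members called against 9.36% of all genes. Without 24 h A, 10 members were called. Hmgcs1 moved by 1.18 ± 0.17 (adjusted p = 0.00439) and Nsdhl by 1.09 ± 0.09 (adjusted p = 4.77e-11). For Hmgcs1 the portal zone changed more: it was at 370.3 ± 68.2 CPM (SD, n = 3) there at 0 h and 116 ± 24.0 (n = 4) at 48 h, and in the central zone at 409 ± 51.5 and 204 ± 30.3. The central zone at 48 h was thus above the portal zone at 48 h and below the central zone at 0 h. These zones do not have the same meaning at the 2 times. The summed central list differed between zones by 0.84 to 0.96 log2 units at 0 h and by -0.07 to 0.12 at 48 h. A move towards the central zone is therefore not a change within a fixed part of the lobule. In the same zones at 48 h, mononuclear phagocyte markers summed to 641 to 1297 CPM centrally and 394 to 747 portally, and myofibroblast markers to 422 to 1123 and 211 to 595. Cycling markers summed to 27.0 to 97.7 CPM centrally and 15.6 to 46.5 portally, neutrophil markers to 24.8 to 76.9 and 19.6 to 55.0, and cholangiocyte markers to 366 to 1167 and 284 to 739, although 3 of these 4 cholangiocyte genes were called higher portally. Hepatocyte markers went the other way, at 65135 to 71593 CPM centrally and 81922 to 104839 portally. What part these played in the sterol difference was not tested.

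**Figure D5:**
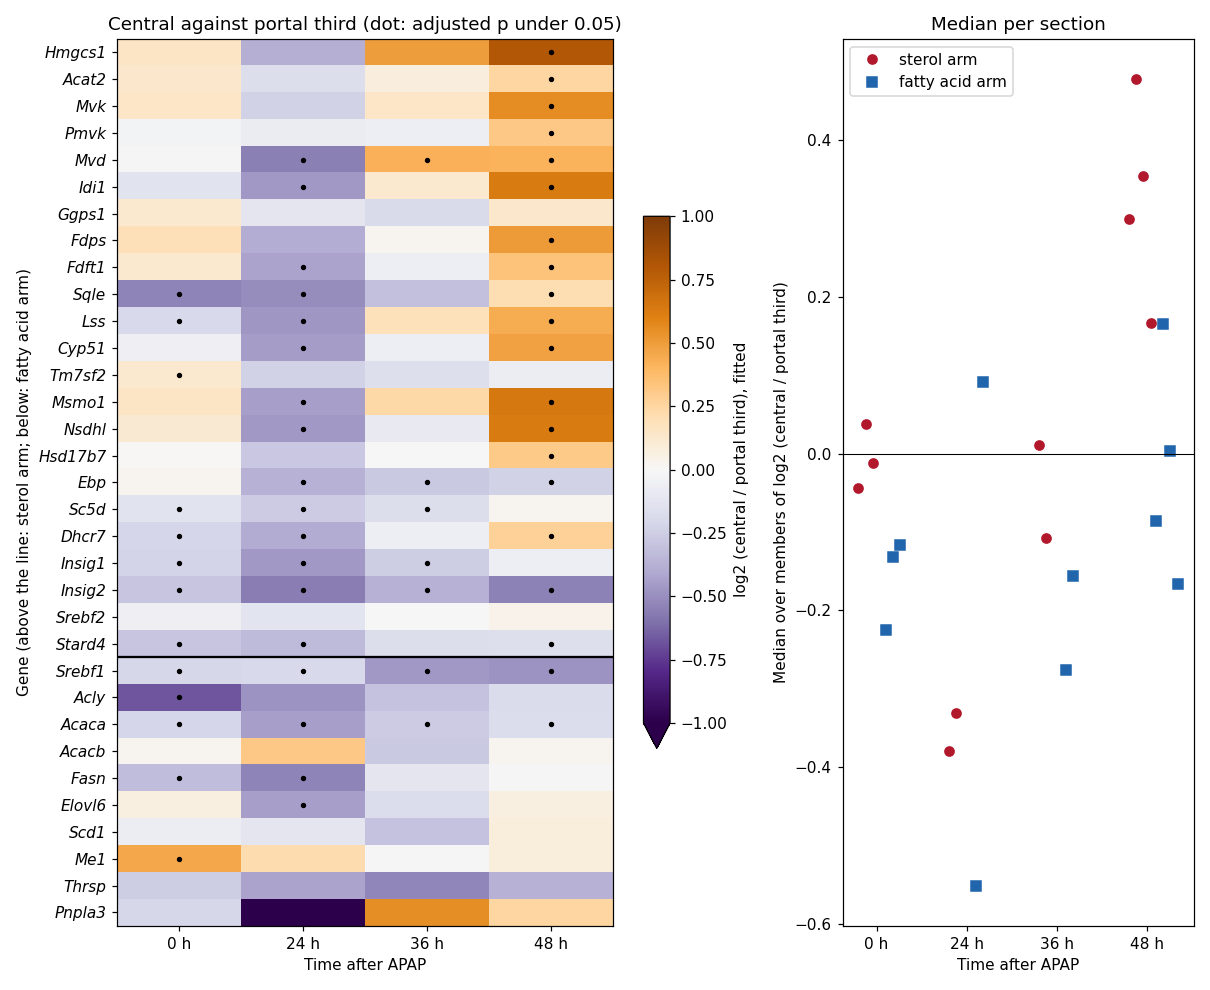
Left: fitted log2 ratio of the central to the portal zone for each gene at each time, dots marking an adjusted p under 0.05. Right: median of that ratio over the members of each arm in every section. The sterol arm's median is -0.38 and -0.33 in the 24 h sections and 0.17 to 0.48 in the 48 h sections, with the fatty acid arm spread around 0 at 48 h.

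In the fatty acid arm fewer genes were called: from 24 h to 48 h the zone difference of 2 genes moved towards the central zone and of 1 towards the portal zone. At 48 h none of its 10 genes was higher centrally and 2 were higher portally, close to the 22% of all genes that were, namely Srebf1 (-0.48 ± 0.04, adjusted p = 1.07e-13) and Acaca (-0.17 ± 0.05, adjusted p = 0.00418). Srebf1 was at 122, 136, 110.4 and 42.0 CPM centrally against 184, 186, 149 and 52.8 portally, and was higher portally in 11 of 11 sections. Scd1 differed by 0.08 ± 0.13 between zones at 48 h. The portal lead of Acly at 0 h was smaller at 48 h, by 0.49 ± 0.15 log2 units (adjusted p = 0.0475), and the central lead of Me1 by 0.38 (adjusted p = 0.00248). With total-count scaling the typical gene was itself 0.24 log2 units higher in the central zone at 48 h. There 20 sterol and 2 fatty acid genes were then higher centrally, and at 36 h 5 sterol genes were, against 1 with TMM.

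Genes around the pathway were counted from lists set by function. Of 8 genes for SREBP transport and cleavage, 7 were tested: 4 were lower at 24 h, 2 at 36 h and 3 at 48 h, where 18.6%, 12.4% and 20.9% of all genes were. Scap, the escort protein, went from 122, 132 and 113 CPM at 0 h to 45.5 to 62.3 in the injured sections (log2 fold change -1.24 ± 0.10 at 48 h, adjusted p = 2.26e-05). The proteases Mbtps1 and Mbtps2 were not called at 48 h (-0.12 ± 0.07 and 0.05 ± 0.18). Among 10 genes of LXR signalling and sterol disposal, 2 were higher at each time and 3, 1 and 1 lower at 24, 36 and 48 h, near the shares over all genes (23.1%, 16.8% and 23.3% higher and 18.6%, 12.4% and 20.9% lower). The higher ones at 48 h were Abcg1, which exports sterol, at 4.27, 5.71 and 5.23 CPM at 0 h and 17.3 to 26.2 at 48 h (2.06 ± 0.16), and Soat1, which esterifies it, at 2.84, 3.15 and 3.67 and 11.4 to 17.4 (2.07 ± 0.23). At 48 h 3 of 4 mononuclear phagocyte markers were also higher, and their part in these 2 differences was not tested.

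Of 5 genes of glucose sensing and fructose and glucose entry, none was called at 24 h or 36 h and 4 were lower at 48 h, where 20.9% of all genes were. Mlxipl, which encodes ChREBP, was at 265 and 53.5 CPM in 36 h A and B, and Pklr, its target, at 73.7 and 22.6, the same direction as the fatty acid genes. Of 16 other SREBP-linked enzymes, 2 were higher and 8 lower at 24 h, 1 and 5 at 36 h, and 1 and 11 at 48 h. Over all genes 23.1% were higher and 18.6% lower at 24 h, 16.8% and 12.4% at 36 h, and 23.3% and 20.9% at 48 h. Acss2, which makes acetyl-CoA from acetate, was at 323, 396 and 297 CPM at 0 h and 44.9 to 96.8 at 48 h (-2.37 ± 0.41, adjusted p = 0.00128), and the elongase Elovl5 at 397, 528 and 370.3 and 78.03 to 119 (-2.16 ± 0.26, adjusted p = 0.00015). Lpin1, a phosphatidate phosphatase, was at 34.0 and 181 CPM in 36 h A and B, opposite to Scd1. Scd2, a desaturase related to Scd1, rose from 7.09 to 7.82 CPM at 0 h to 19.6 to 31.1 at 48 h (1.66 ± 0.20, adjusted p = 0.000128).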

How the data were processed

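Spatial transcriptomes of 11 mouse liver sections were analysed. The authors aligned reads with Space Ranger 1.0.0 to mm10, and the deposited values are raw UMI counts per gene and spot. Spots under tissue were retained at 800 or more genes and 20% or less mitochondrial UMIs, following the study, whose manual removal of spots was not repeated. Counts were summed per section or zone, since spots are not replicates. Zones were 3 equal groups of spots ranked by central minus portal list score after thinning to 2000 UMIs. Sums were tested with edgeR 4.0.16 (filterByExpr, TMM, robust quasi-likelihood, 1 fit; section as block for zones), two-sided, adjusted over all genes tested, after tests on simulated data. Alternatives were DESeq2 1.42.0, other scalings, filters, spot sets and zones, and leaving out each section. Members, lists and tests were chosen with earlier results of these data known, and the zone lists come from the study's own spatial data. Genes given in every section were called against 0 h with an absolute log2 fold change of at least 1, at most 12 sterol and 8 fatty acid genes by size, plus Srebf1, Srebf2, Insig1 and Insig2. Zone genes were the 5 largest called. Mvd, Sqle at 48 h, Scd2, Mlxipl, Lpin1 and the clock genes were named after their values were seen.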

Additional observations from a re-analysis of the deposited data

Results flagged for a closer look

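In 2 sets of 4 sections at 48 h, 1 section stood apart from the others by Dixon's ratio of gap to range, which was 0.971 for Ggps1 (section D at 6.56 CPM, the others at 7.99 to 8.03) and 0.837 for Tm7sf2 (section B at 32.4 CPM, the others at 43.3 to 45.4). Chance flags about 1 in 20 such groups, and all members were examined.

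The central to portal difference itself changed with time in the edgeR test of the contrast. It was called for 11 of 33 members between 24 h and 0 h, against 10.7% of all genes. The log2 changes were -0.59 for Msmo1, -0.58 for Nsdhl and -0.54 for Fdft1. The Msmo1 call was lost in 7 of 11 fits that left out 1 section. Between 36 h and 0 h the zone difference was called for 6 of 33 members, against 13.1% of all genes. The changes were -0.48 for Me1, 0.44 for Mvd and 0.38 for Lss, and these calls were lost in 1, 2 and 1 of 11 such fits. Between 48 h and 0 h it was called for 20 of 33 members, against 29% of all genes, with 0.77 for Idi1, 0.74 for Sqle and 0.65 for Hmgcs1. Between 48 h and 24 h it was called for 20 of 33 members, against 9.36% of all genes, with 1.18 for Hmgcs1, 1.10 for Idi1 and 1.09 for Nsdhl. This Hmgcs1 call was lost in 1 of 11 such fits.

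Spots outside the tissue, used in no comparison, held 769686 UMIs of the members over the 11 sections. As unscaled CPM their sum was 2321 to 12524 outside the tissue and 2395 to 13832 in passing spots of the same sections.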

How the results depend on the processing

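Of 56 called differences between times, all kept their call with DESeq2, DESeq2 size factors or all spots under tissue, 34 with total-count scaling, 48 with no low-count filter, 54 in fits of only the 2 groups and 49 without hepatocyte-low spots. Srebf2 at 48 h turned to 0.0235 with total-count scaling. Of 40 called zone results, none kept its call with no section block, and 36 did with DESeq2, 36 with the portal score alone, 39 with 4 zones, comparing the outer ones and 29 with total-count scaling. The zone difference of Elovl6 at 24 h against 0 h ranged from -0.63 to 0.0182 when 1 section was left out, the latter without 24h replicate A. The causes were not tested.

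Called members changed as follows. Fatty acid genes at 24 h (1) became 3 with DESeq2 and 3 in only the 2 groups, at 36 h (1) 2 with DESeq2, and at 48 h (8) 5 with no filter and 4 with total-count scaling. Sterol genes at 36 h (14) became 8 with total-count scaling. Sterol genes between 36 h and 24 h (2) became 0 with injured sections only and 0 in only the 2 groups, and 1 with no filter, total-count scaling or without hepatocyte-low spots. Those between 48 h and 36 h (1) became 0 with injured sections only and in only the 2 groups. With no section block every zone count became 0, except 1 for sterol genes at 48 h. In zones at 24 h, sterol genes (14) became 22 with hepatocyte-low spots kept and 8 with total-count scaling. At 36 h, sterol genes (5) became 8 with no filter, and fatty acid genes (2) 1 with DESeq2 or total-count scaling, 6 with no filter and 4 with the portal score alone. At 48 h, fatty acid genes (2) became 1 with DESeq2 and 5 with no filter or the portal score alone. The zone difference at 24 h against 0 h (11) became 17 with hepatocyte-low spots kept and 4 with total-count scaling, and that at 36 h (6) became 3 with DESeq2 or total-count scaling and 12 with no filter.

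Leaving out 1 section gave 6 to 14 sterol and 1 to 5 fatty acid genes at 24 h, 9 to 16 and 1 to 7 at 36 h, 18 to 21 and 4 to 9 at 48 h and, from 24 h to 36 h, 0 to 3 and 0. From 36 h to 48 h it gave 1 to 2 and 0 to 2. The fatty acid count at 24 h was 5 without 36h replicate A or B and 3 without 24h replicate A. Zone counts ranged over 5 to 11 sterol and 4 to 5 fatty acid genes at 0 h (5 without 0h replicate 2), 8 to 15 and 2 to 5 at 24 h, 1 to 7 and 1 to 4 at 36 h, and 16 to 18 and 1 to 3 at 48 h. Zone differences were called for 5 to 13 members at 24 h, 1 to 8 at 36 h and 15 to 21 at 48 h against 0 h, and 10 to 21 at 48 h against 24 h.

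Whether letters shared by sections of different times pair them is not stated. Differences of section A from B in log2 CPM correlated at 0.29 (24 h and 36 h), -0.17 (24 h and 48 h) and -0.09 (36 h and 48 h). These values, over 14821 genes, rest on a single difference per time and cannot decide it. With the replicate block in the injured sections, sterol calls became 1 (36 h against 24 h) and 0 (48 h against 36 h, where it was 1). All tests are limited by a stated n of 1 per time, with no mouse named for any section. There are 2 sections each at 24 h and 36 h, and Pnpla3 had at most 45 UMIs in a section.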
